A study of Homo sapiens with 15 samples.

Results

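The ERBB receptors and the growth factors of the epidermal growth factor (EGF) family were described at the RNA level in 5 groups of triple negative breast cancer cells. The genes were chosen by name, as the entries of the deposited expression table whose symbol is EGFR, ERBB2, ERBB3, AREG, EREG, HBEGF, TGFA, BTC, EPGN or NRG1. All 10 symbols were found among the 33158 gene symbols of the table.

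The study compared cancer stem cells (CSCs), defined by cytometry as CD44+CD24-/low, with the remaining cells (non-CSCs) in established triple negative breast cancer lines. CSCs and non-CSCs were sorted from SUM149PT and from HCC1937, labelled SUM149 and HCC1937. The line labelled SUM159 (SUM159PT) was sequenced without sorting. The study counts it as CSC, since most of its cells were CD44+CD24-. Each of the 5 groups held 3 libraries of mRNA, 15 in all, and no group carried a genetic change or a treatment made by the study. Each line is a single established cell line, and no label says whether the 3 replicates of a group were separate cultures. The p-values below therefore measure the spread between libraries, which may be technical only.

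ERBB receptors are tyrosine kinases of the cell surface that work in pairs. EGFR binds the EGF-like ligands, ERBB3 binds the neuregulins but has a weak kinase of its own, and ERBB2 has no known ligand and acts as the preferred partner of the others. The ligands are made as membrane proteins and are released by proteases called sheddases, after which the receptor pairs drive the RAS-MAPK and PI3K pathways, and EGFR is often abundant in basal-like breast cancer while ERBB2 is not amplified in triple negative disease.

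Expression is given as FPKM, the authors' own values, in which fragments are divided by transcript length and by the fragments mapped in a library. Read counts were not among the values used here, so the depth behind each value is unknown and the precision rests on the 3 libraries of a group. The FPKM values of a library summed to between 291276 and 366532 in the 12 sorted libraries and to between 634746 and 652082 in the 3 SUM159PT libraries. Between 11249 and 11997 genes per sorted library were above 1 FPKM, against 8534 to 8670 in SUM159PT. SUM159PT was never sorted, is a different line and has other FPKM sums, so these differences cannot be told apart in the comparisons that use it. No pair of libraries was identical, and the lowest correlation between libraries of a group, over genes, was 0.972.

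The sort was visible in the RNA of its marker gene CD24. CD24 averaged 7.74 ± 0.198 FPKM (SD, n = 3) in SUM149PT CSCs against 139.5 ± 6.53 in non-CSCs, and 23.3 ± 0.747 against 150.04 ± 14.26 in HCC1937. CD24 was lower in the CSCs of both lines by the test used below, with log2 fold changes of -4.15 and -2.67. CD44, which marks CSCs by its presence, did not pass that test, with log2 fold changes of 0.39 in SUM149PT and 0.12 in HCC1937. In SUM159PT, CD24 averaged 0.729 ± 0.0410 FPKM and CD44 28.8 ± 0.542 FPKM.

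The ligand genes EPGN, EREG and AREG lie in a row on the long arm of chromosome 4 and are read in the same direction, and the sequences in front of them are shown because these neighbours did not move together in the results that follow. In the GENCODE 29 annotation of GRCh38, EPGN spans chr4:74308473-74315307, EREG chr4:74365143-74388751 and AREG chr4:74445134-74455009, all on the plus strand. EPGN and EREG are 49.8 kb apart and EREG and AREG 56.4 kb apart, and BTC follows 289.8 kb further on at chr4:74744759-74794686 on the minus strand. Promoter windows from RefSeq (GRCh38.p14, 250 bases in front of the start) were matched for 8 of the 10 genes, with 10 windows, and ERBB3 and NRG1 are named only. The 120 bases that end 6 before the start are printed 5' to 3' on the plus strand for EPGN (chr4:74308345-74308464), EREG (chr4:74365020-74365139) and AREG (chr4:74445011-74445130), with capitals for the motifs found.
EPGN: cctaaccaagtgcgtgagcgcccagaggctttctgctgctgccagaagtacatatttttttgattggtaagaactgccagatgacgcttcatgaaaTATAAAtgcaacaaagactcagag
EREG: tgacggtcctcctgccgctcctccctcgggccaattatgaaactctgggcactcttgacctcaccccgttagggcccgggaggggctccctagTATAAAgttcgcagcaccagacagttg
AREG: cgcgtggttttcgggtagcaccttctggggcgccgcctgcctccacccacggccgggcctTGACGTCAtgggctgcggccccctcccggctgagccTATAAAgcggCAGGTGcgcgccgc

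The motifs were chosen after these windows had been looked at and were searched on both strands of the 250 bases in front of each start. TATAAA, the core of the TATA box, began 29 bases before the EPGN start, 32 before the EREG start and 29 before the AREG start. It was also found in a window of EGFR, beginning at -146 and -36 from the start used there. That window begins at chr7:55109589, inside the gene as annotated (chr7:55019021-55211628). Of all 35116 promoter windows, 10.7% held TATAAA on either strand. TGACGTCA, the cAMP response element, was found 65 bases before the AREG start and in no other window of the 8 matched genes, and 1.65% of all windows held it. CACCTG, the E-box letters read by the ZEB and SNAI factors, appeared in AREG on the minus strand (printed as CAGGTG) and in windows of EREG, TGFA, BTC and HBEGF, and 17.5% of all windows held it. TGAGTCA, the AP-1 letters, was found in that same window of EGFR and in 4.2% of all windows. A match describes letters, and no binding was measured here.

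The levels of the 10 genes spanned a wide range within each line, and the highest values were those of ligand genes in the sorted lines and of ERBB2 in SUM159PT. In each plot and sentence that follows, values are FPKM of replicates 1, 2 and 3 unless another scale is named.

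**Figure D1:**
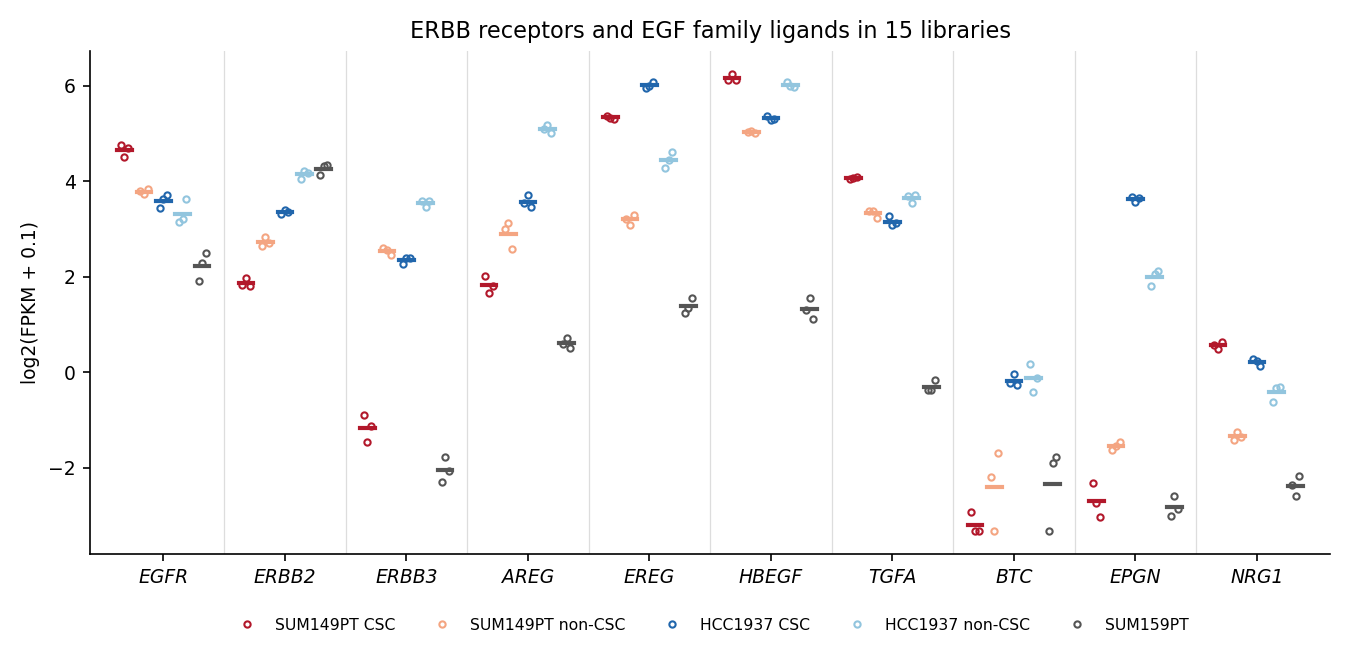
Log2 of FPKM plus the pseudocount for the 10 genes in each of the 15 libraries, with 1 point per library and group means as bars. HBEGF and EREG reached 76.0 and 67.1 FPKM in the sorted lines, and each SUM159PT library was under 3 FPKM for all 6 ligands of EGFR among these genes.

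EGFR, the receptor of the EGF-like ligands, stood at 26.7, 22.7 and 25.7 FPKM in SUM149PT CSCs and at 13.7, 13.1 and 14.1 in SUM149PT non-CSCs. In HCC1937 it stood at 10.8, 12.1 and 13.0 in CSCs and at 8.68, 9.07 and 12.2 in non-CSCs. The SUM149PT groups did not overlap and the HCC1937 groups did, with replicate 3 of the HCC1937 non-CSCs inside the CSC range. SUM159PT was lowest, at 3.66, 4.78 and 5.50.

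ERBB2, the receptor with no known ligand, stood at 3.46, 3.80 and 3.39 FPKM in SUM149PT CSCs against 6.16, 7.02 and 6.40 in non-CSCs. HCC1937 had it at 9.81, 10.5 and 10.2 in CSCs against 16.4, 18.3 and 17.8 in non-CSCs. CSC libraries were below the non-CSC libraries of their line in both lines. SUM159PT, at 17.4, 19.8 and 20.0, overlapped the HCC1937 non-CSCs at the top of the order.

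ERBB3, the neuregulin receptor, stood at 0.434, 0.262 and 0.357 FPKM in SUM149PT CSCs against 5.92, 5.79 and 5.40 in non-CSCs. The HCC1937 values were 4.72, 5.16 and 5.15 in CSCs against 11.9, 10.9 and 11.8 in non-CSCs. No neighbouring groups overlapped in its order, which ran from HCC1937 non-CSCs through SUM149PT non-CSCs, HCC1937 CSCs and SUM149PT CSCs down to SUM159PT at 0.103, 0.190 and 0.139.

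The receptors together summed to 28.9 ± 1.97 FPKM (SD, n = 3) in SUM149PT CSCs and to 25.9 ± 0.103 in non-CSCs. EGFR made up 86.5% of that sum in SUM149PT CSCs and 52.7% in non-CSCs, and ERBB3 1.20% and 22.1%. HCC1937 sums were 27.1 ± 1.62 FPKM (CSCs) and 39.0 ± 2.47 (non-CSCs), of which EGFR made up 44.1% and 25.4%. The SUM149PT sums, at 26.8 to 30.6 FPKM in CSCs and 25.7 to 25.9 in non-CSCs, were close without overlap, while the shares of EGFR and ERBB3 differed widely. SUM159PT had a sum of 23.9 ± 2.39 FPKM, and ERBB2 made up 80.1% of it.

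Each line was tested with limma on log2(FPKM + 0.1), over all genes that averaged 0.1 FPKM or more, and calls needed an adjusted p up to 0.05 together with a 2-fold change or more. Fold changes on this scale are smaller than the ratio of FPKM values for genes near 0. With 3 libraries against 3, a two-sided exact permutation test of a single gene cannot go below p = 0.10. Fewer cells expressing a gene and less of its RNA per cell cannot be told apart in such bulk libraries.

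SUM149PT CSCs against SUM149PT non-CSCs asked how the family differed between the sorted fractions of a line. Of the 9 family genes tested, 3 were called higher (EREG, HBEGF and NRG1), while 12.8% of all 16037 genes were called higher. Another 3 were called lower (ERBB3, AREG and EPGN), while 22.1% of all genes were called lower. BTC was under the expression minimum. The median log2 fold change was 0.74 over the 9 genes and -0.11 over all genes tested. Called genes were 36.5% higher, a share that became 50.0% with quantile normalization and 51.5% with the GC trend removed, where the median of all genes moved from -0.11 to 0.09 and 0.14.

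HCC1937 CSCs against HCC1937 non-CSCs asked the same in the other sorted line. All 10 genes were tested, and 2 were called higher (EREG and EPGN), while 2.71% of all 15582 genes were called higher. Another 2 were called lower (ERBB3 and AREG), while 6.0% of all genes were called lower. The median log2 fold change was -0.27 over the 10 genes and -0.03 over all genes. Called genes were 31.1% higher, a share that became 42.2% with TPM scaling, where the median of all genes moved to 0.09, and 41.6% with the GC trend removed.

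Of the receptors, ERBB3 alone passed both limits of the test, and it did so in both lines. ERBB3 was lower in SUM149PT CSCs by 13.0-fold (log2 -3.70 ± 0.15 SE, adjusted p = 8.72e-06) and in HCC1937 CSCs by 2.28-fold (log2 -1.19 ± 0.07, adjusted p = 0.000399). ERBB2 missed the fold limit in both lines, with log2 fold changes of -0.86 (adjusted p = 0.00018) and -0.78 (adjusted p = 0.00124). EGFR had a log2 fold change of 0.87 ± 0.08 in SUM149PT, with an adjusted p of 0.000193 and under the fold limit, and it passed the limit with the GC trend removed, at 1.21. In HCC1937 the value for EGFR was 0.28, with a 95% confidence interval of -0.11 to 0.66 and an adjusted p of 0.258.

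**Figure D2:**
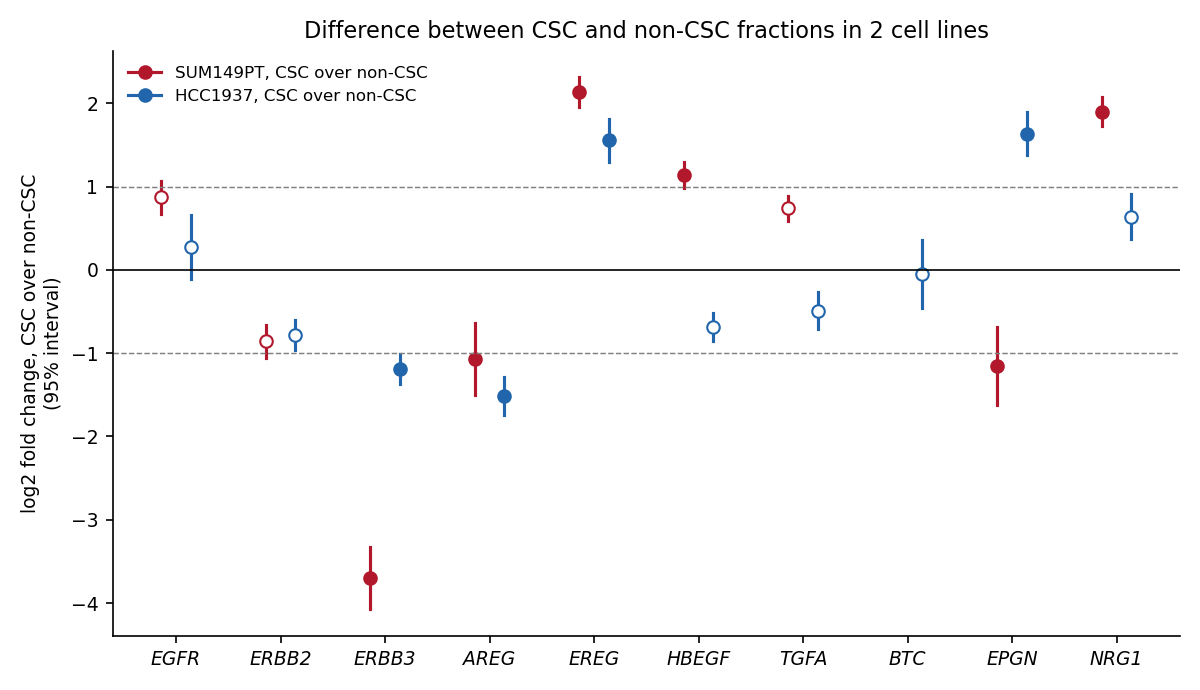
Log2 fold change of CSCs over non-CSCs for each of the 10 genes in SUM149PT and HCC1937, with 95% confidence intervals, called genes filled and dashed lines at the fold limit. HBEGF lay at 1.13 in SUM149PT and -0.69 in HCC1937, EPGN at -1.16 and 1.63, and EREG above the limit and ERBB3 below it in both lines.

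EREG encodes epiregulin, a ligand of EGFR and ERBB4. It stood at 41.3, 40.1 and 39.3 FPKM in SUM149PT CSCs against 9.18, 8.41 and 9.68 in non-CSCs. HCC1937 had 61.4, 63.4 and 67.1 in CSCs against 19.3, 21.7 and 24.4 in non-CSCs. The CSC libraries of both lines were above all non-CSC libraries of both lines, and SUM159PT lay below all of them at 2.26, 2.45 and 2.81. EREG was higher in SUM149PT CSCs by 4.39-fold (log2 2.13 ± 0.07, adjusted p = 4.92e-06) and in HCC1937 CSCs by 2.93-fold (log2 1.55 ± 0.10, adjusted p = 0.00048).

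AREG encodes amphiregulin, a ligand of EGFR, and it moved the other way from its neighbour EREG. It stood at 3.94, 3.03 and 3.395 FPKM in SUM149PT CSCs against 7.87, 8.64 and 5.84 in non-CSCs. The HCC1937 values were 11.6, 12.9 and 10.9 in CSCs against 33.8, 35.8 and 31.9 in non-CSCs. The fractions of a line did not overlap, and SUM159PT was lowest at 1.39, 1.55 and 1.32. AREG was lower in HCC1937 CSCs by 2.86-fold (log2 -1.52 ± 0.09, adjusted p = 0.000363). The SUM149PT value was log2 -1.07 ± 0.17 (adjusted p = 0.00209), a call lost with a pseudocount of 1 (-0.91), with quantile normalization (-0.93), without SUM149PT CSC replicate 2 (-0.99) and without SUM149PT non-CSC replicate 2 (-0.96).

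The ratio of EREG to AREG, in FPKM within a library, had a median of 11.6 in SUM149PT CSCs (10.5 to 13.2) and of 1.17 in non-CSCs (0.973 to 1.66). In HCC1937 the median was 5.31 in CSCs (4.92 to 6.16) and 0.607 in non-CSCs (0.572 to 0.766). The ratio was higher in each of the 6 CSC libraries of the sorted lines than in each of the 6 non-CSC libraries. In SUM159PT the median was 1.62 (1.58 to 2.13).

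EPGN encodes epigen, a ligand of EGFR, and is the next gene upstream of EREG. It stood at 12.6, 11.7 and 12.4 FPKM in HCC1937 CSCs against 3.37, 4.05 and 4.26 in non-CSCs. In SUM149PT it was near 0, at 0.1005, 0.0497 and 0.0212 in CSCs against 0.224, 0.241 and 0.264 in non-CSCs. Neither line showed overlap between its fractions, but CSCs were on top in HCC1937 and at the bottom in SUM149PT. EPGN was higher in HCC1937 CSCs by 3.10-fold (log2 1.63 ± 0.11, adjusted p = 0.000438). The SUM149PT value was -1.16 ± 0.19 (adjusted p = 0.00211), and that call was lost with a pseudocount of 1 (-0.23), with quantile normalization (-0.72) and without SUM149PT CSC replicate 3 (-0.98).

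HBEGF encodes heparin-binding EGF-like growth factor, a ligand of EGFR and ERBB4, on chromosome 5. It stood at 68.9, 76.0 and 69.2 FPKM in SUM149PT CSCs against 32.5, 32.9 and 31.9 in non-CSCs. HCC1937 had 41.0, 38.7 and 39.3 in CSCs against 67.2, 63.0 and 62.1 in non-CSCs. The CSC libraries were the higher fraction in SUM149PT and the lower fraction in HCC1937, with no overlap in either line, and SUM159PT was lowest at 2.36, 2.83 and 2.06. HBEGF was higher in SUM149PT CSCs by 2.19-fold (log2 1.13 ± 0.06, adjusted p = 2.48e-05), while the HCC1937 value of -0.69 ± 0.07 (adjusted p = 0.00142) was under the fold limit.

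TGFA encodes transforming growth factor alpha, a ligand of EGFR, on chromosome 2. It stood at 16.3, 16.5 and 17.0 FPKM in SUM149PT CSCs against 10.2, 10.3 and 9.32 in non-CSCs. The HCC1937 values were 9.51, 8.32 and 8.598 in CSCs against 12.8, 11.5 and 13.0 in non-CSCs. TGFA thus had the same order of fractions as HBEGF in each line, with SUM159PT at 0.668, 0.666 and 0.794. The log2 fold changes of 0.74 in SUM149PT and -0.49 in HCC1937 were under the fold limit, and the SUM149PT value passed it with the GC trend removed, at 1.22.

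BTC encodes betacellulin, a ligand of EGFR and ERBB4. Among the ligands of EGFR chosen by name, which leave out EGF, it had the lowest mean in each of the 4 sorted groups. In SUM149PT CSCs it was listed at 0 in replicates 2 and 3 and at 0.0308 FPKM in replicate 1, and in non-CSCs at 0.119, 0 and 0.209. In HCC1937 it stood at 0.756, 0.866 and 0.726 in CSCs against 1.02, 0.647 and 0.814 in non-CSCs, with overlapping fractions and a log2 fold change of -0.06 (adjusted p = 0.838). That sign turned with TPM scaling, with quantile normalization and without HCC1937 non-CSC replicate 1 (0.09). SUM159PT had BTC at 0, 0.167 and 0.193.

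The 6 ligands of EGFR summed to 131.7 ± 3.51 FPKM (SD, n = 3) in SUM149PT CSCs and to 59.2 ± 1.73 in non-CSCs. The HCC1937 sums were 137.2 ± 1.58 (CSCs) and 136.9 ± 0.556 (non-CSCs). The sum thus differed between fractions in SUM149PT by far more than its spread, and in HCC1937 by less than its spread. SUM159PT had a sum of 7.21 ± 0.512 FPKM.

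The make-up of that sum differed between fractions in both sorted lines. In HCC1937, EREG made up 46.6% in CSCs and 15.9% in non-CSCs, while AREG made up 8.59% and 24.7% and HBEGF 28.9% and 46.8%. In SUM149PT, HBEGF made up 54.2% in CSCs and 54.7% in non-CSCs, while EREG made up 30.5% and 15.4% and AREG 2.63% and 12.5%. EREG took the larger share in CSCs of both lines and AREG the smaller share, and the share of HBEGF differed between fractions in HCC1937 by more than its spread.

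**Figure D3:**
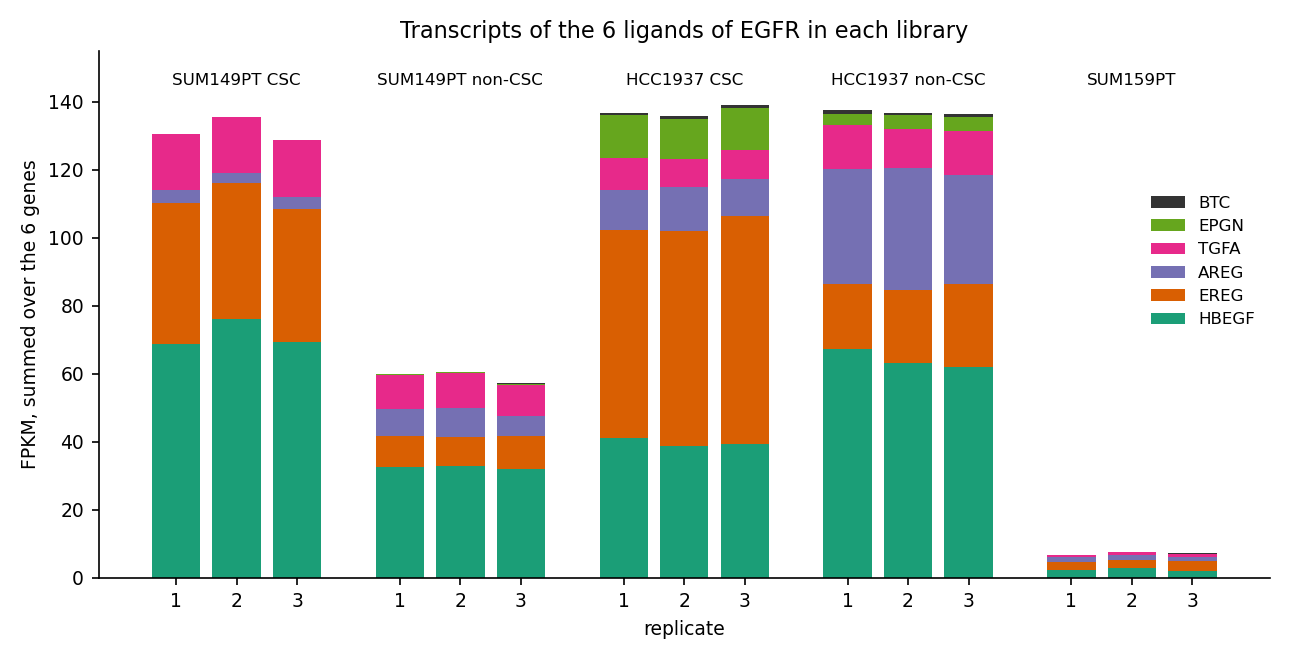
Stacked FPKM of the 6 ligands of EGFR in each of the 15 libraries, with 1 bar per library. The group means of the sums were 131.7 and 59.2 FPKM in SUM149PT CSCs and non-CSCs, 137.2 and 136.9 in HCC1937, and 7.21 in SUM159PT.

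NRG1 encodes neuregulin 1, a ligand of ERBB3 and ERBB4. It stood at 1.38, 1.29 and 1.45 FPKM in SUM149PT CSCs against 0.276, 0.316 and 0.292 in non-CSCs. HCC1937 had 1.11, 1.07 and 1.0003 in CSCs against 0.548, 0.691 and 0.708 in non-CSCs. CSC libraries were above non-CSC libraries in both lines, the opposite order of ERBB3. NRG1 was higher in SUM149PT CSCs by 3.73-fold (log2 1.90 ± 0.07, adjusted p = 7.02e-06), a call that was lost with a pseudocount of 1 (0.87), and it was not tested at a minimum mean of 1 FPKM, while the HCC1937 value of 0.64 (adjusted p = 0.00941) was under the fold limit. SUM159PT had NRG1 at 0.0932, 0.0651 and 0.122.

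The CSC effect itself was compared between the lines, as the SUM149PT fold change minus the HCC1937 fold change, in a fit of the 12 sorted libraries. The difference was positive and called for 3 of the 10 genes (HBEGF, TGFA and NRG1), while 12.2% of all 16451 genes were called with a positive difference. It was negative and called for 2 (ERBB3 and EPGN), while 18.2% of all genes were. HBEGF had a difference of 1.83 (adjusted p = 8.48e-08), TGFA of 1.23 (adjusted p = 4.72e-06) and NRG1 of 1.26 (adjusted p = 1.78e-05), and NRG1 lost the call with a pseudocount of 1 (0.55). For ERBB3 it was -2.51 (adjusted p = 1.09e-06) and for EPGN -2.79 (adjusted p = 3.6e-06).

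AREG and EREG differed less between the lines. The difference was 0.44 for AREG (adjusted p = 0.0883) and 0.58 for EREG (adjusted p = 0.00251), under the fold limit. ERBB2 had a difference of -0.08 (adjusted p = 0.525), a sign that turned with a pseudocount of 1 and with the GC trend removed. BTC, at -0.73 (adjusted p = 0.218), was called without SUM149PT non-CSC replicate 2 (-1.19). Called genes had a positive difference in 40.2% of cases, and in 50.8% with the GC trend removed, where the median of all genes moved from -0.08 to 0.10.

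The lines were also compared within a fraction, which asked how far the family differed between lines of the same sort. These comparisons share libraries with those above. HCC1937 CSCs had 5 genes called higher than SUM149PT CSCs (ERBB2, ERBB3, AREG, BTC and EPGN), while 25.7% of all genes were called higher. They had 1 called lower (EGFR, log2 -1.06), while 17.1% of all genes were called lower, and EGFR lost the call without HCC1937 CSC replicate 1 (-0.98). EPGN differed most, by 80.1-fold, and ERBB3 by 11.5-fold. HBEGF (-0.84) and TGFA (-0.91) missed the limit and passed it with quantile normalization (-1.02 and -1.08), where the median of all genes moved from 0.23 to 0.06. TGFA also passed it with the GC trend removed (-1.20), and BTC lost the call with a pseudocount of 1 (0.82).

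HCC1937 non-CSCs had 6 genes called higher than SUM149PT non-CSCs (ERBB2, ERBB3, AREG, EREG, BTC and EPGN), while 21.9% of all genes were called higher. Of the 10, 0 were called lower in this limma fit, while 20.4% of all genes were, and 1 had a negative value at an unadjusted p under 0.05 (EGFR, log2 -0.46, adjusted p = 0.00731). ERBB3, at 1.004, fell under the limit without SUM149PT non-CSC replicate 3 (0.97), HCC1937 non-CSC replicate 1 (0.98) or HCC1937 non-CSC replicate 3 (0.99), and with a pseudocount of 1 (0.90), TPM scaling (0.85) and quantile normalization (0.91). BTC, at 2.28, lost the call with a pseudocount of 1 (0.72). NRG1, at 0.92, passed the limit with a pseudocount of 0.01 (1.11), with quantile normalization (1.14) and without HCC1937 non-CSC replicate 1 (1.02), and HBEGF, at 0.98, without HCC1937 non-CSC replicate 3 (1.003). The median over the 10 genes was 1.13, against 0.10 over all genes, which moved to -0.06 with TPM scaling.

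SUM159PT was compared with each sorted CSC group, since the study counts it as a CSC group too. The comparisons share the SUM159PT libraries. Against SUM149PT CSCs, 1 gene was called higher (ERBB2, 5.25-fold), while 19.1% of all 16373 genes were called higher. Another 6 were called lower (EGFR, AREG, EREG, HBEGF, TGFA and NRG1), while 42.3% of all genes were called lower. HBEGF differed most, by 28.6-fold. The median was -1.82 over the 10 genes and -0.60 over all genes, and the latter moved to -1.63 with TPM scaling and to -0.01 with quantile normalization. Called genes were 31.1% higher, against 11.2% with TPM scaling, 48.9% with quantile normalization and 51.3% with the GC trend removed. AREG (-1.22) turned to 0.21 with quantile normalization and to 1.11 with the GC trend removed, and it lost the call with a pseudocount of 1 (-0.88). ERBB3, at -0.88, was called lower with a pseudocount of 0.01 (-1.24), with TPM scaling (-1.95) and without SUM149PT CSC replicate 2 (-1.03) or SUM159PT replicate 2 (-1.01), and it turned to 0.14 with quantile normalization. BTC, at 0.86, was called higher with quantile normalization (1.62), with the GC trend removed (3.403) and without SUM159PT replicate 1 (1.35). EPGN, at -0.13, was called higher with the GC trend removed (1.90).

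Against HCC1937 CSCs, 0 of the 10 genes were called higher in SUM159PT by limma, while 17.6% of all genes were, and 1 had a positive value at an unadjusted p under 0.05 (ERBB2, log2 0.90). ERBB2 was called higher with quantile normalization (1.24) and turned to -0.10 with TPM scaling. The 9 others were called lower, while 46.5% of all genes were called lower. The median was -3.21 over the 10 genes and -0.85 over all genes, and the latter moved to -1.83 with TPM scaling and to -0.02 with quantile normalization. Called genes were 27.5% higher, against 12.9%, 47.8% and 49.4% with TPM scaling, quantile normalization and the GC trend removed. EGFR (-1.36) lost the call with quantile normalization (-0.42), AREG (-2.97) with the GC trend removed (-0.60) and NRG1 (-2.60) with a pseudocount of 1 (-0.91). BTC (-2.15) lost it with a pseudocount of 1 (-0.67) and with quantile normalization (-1.12), and turned to 0.44 with the GC trend removed.

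Other genes of the chromosome 4 region were read in the same way, as those annotated within 1 Mb of the 4 ligand genes there. The table held 26 of them, the 4 ligands included. Of the other 22, 15 were tested in SUM149PT, with 8 called lower and 1 called higher in CSCs (PARM1, log2 1.09, named after its value was seen and lost with a pseudocount of 1, at 0.43, and without SUM149PT non-CSC replicate 1, at 0.90), while 22.1% of all genes were called lower and 12.8% higher. In HCC1937, 11 were tested, with 7 called higher and 1 called lower in CSCs (PARM1 again, log2 -1.43), while 2.71% of all genes were called higher and 6.0% lower. Genes side by side on a chromosome are not independent. The chemokine genes CXCL6, CXCL1 and CXCL5, at -608.6, -575.7 and -446.4 kb from the AREG start, had log2 fold changes of -4.93, -4.69 and -4.27 in SUM149PT and of 2.47, 1.77 and 2.23 in HCC1937. The platelet chemokine genes PPBP and PF4 had -4.47 and -3.21 in SUM149PT and were under the minimum in HCC1937. For CXCL6 the difference between the lines was -7.40 (adjusted p = 8.52e-08). Other chemokine genes of the region differed from these, as IL8 (0.35 and 1.36) and CXCL2 (0.59 and 1.06) were positive in both lines, and CXCL3 had -0.16 (adjusted p = 0.102) in SUM149PT and 1.88 in HCC1937. Besides PARM1, the genes called that are not chemokine genes were RASSF6 (-1.57), THAP6 (-1.05) and C4orf26 (-2.26) in SUM149PT and MTHFD2L (1.61) in HCC1937. THAP6 had 0.22 in HCC1937 and MTHFD2L had -0.10 in SUM149PT, and neither value was called. IL8, CXCL2, CXCL3, RASSF6, THAP6, C4orf26 and MTHFD2L are named after their values were seen. EPGN had the signs of CXCL6, CXCL1 and CXCL5 in both lines, EREG was positive in both as IL8 and CXCL2 were, and AREG was negative in both.

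**Figure D4:**
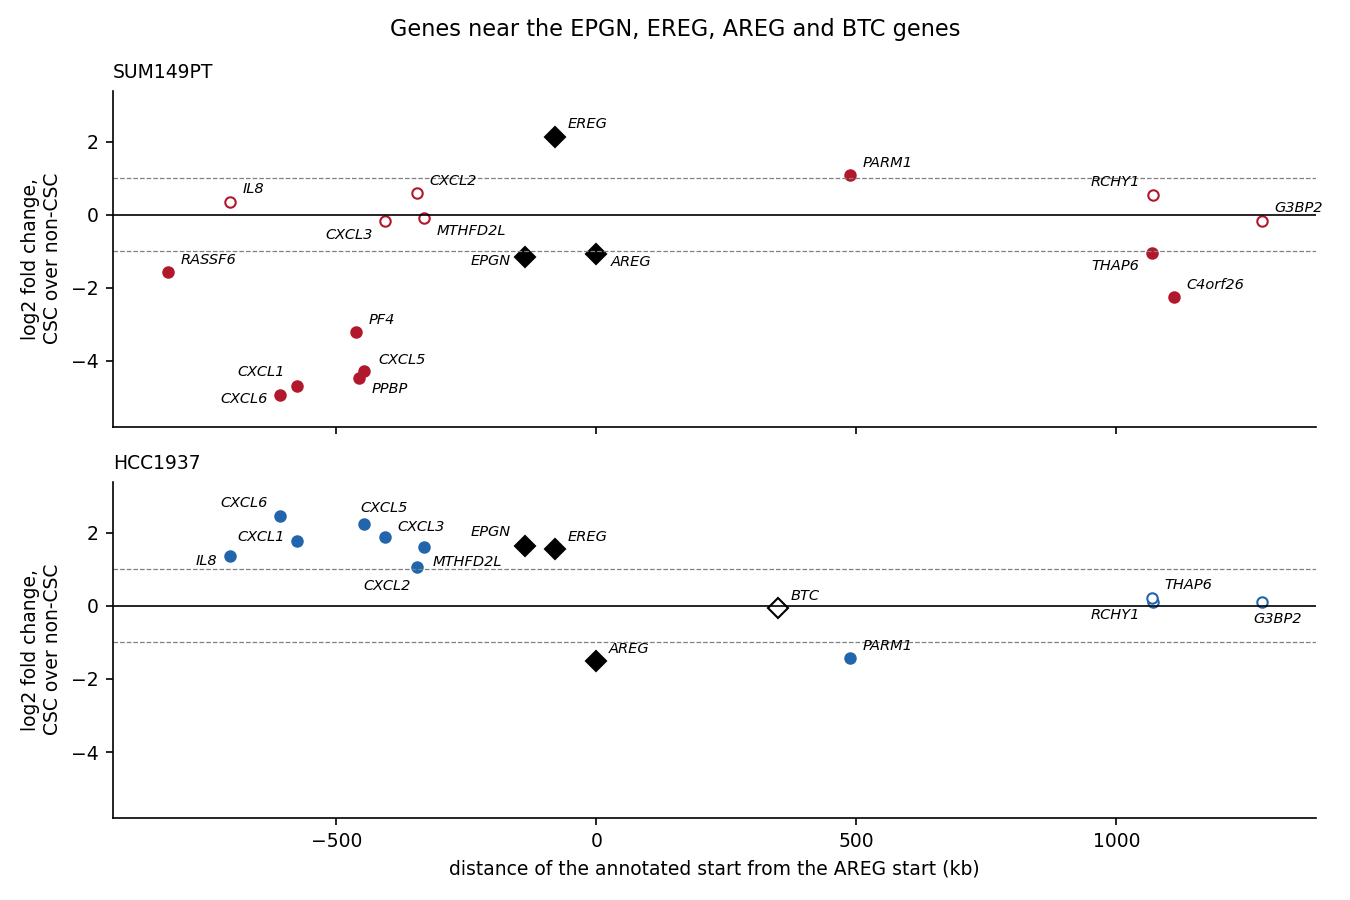
Log2 fold change of CSCs over non-CSCs for the genes near the chromosome 4 ligands, against distance from the AREG start in kb, in SUM149PT and HCC1937, with the ligands as diamonds and called genes filled. CXCL6, CXCL1 and CXCL5 lay at -4.93, -4.69 and -4.27 in SUM149PT and at 2.47, 1.77 and 2.23 in HCC1937, while EREG lay at 2.13 and 1.55 and AREG at -1.07 and -1.52.

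Of 5 further genes of the family, 2 were tested and 0 were called by limma in either line, while both were at an unadjusted p under 0.05 in both lines. Of all genes, 12.8% were called higher and 22.1% lower in SUM149PT CSCs, and 2.71% and 6.0% in HCC1937 CSCs, so 0 calls among 2 genes say little. With TPM scaling or the GC trend removed 1 of them was called higher in SUM149PT CSCs, and with quantile normalization 2 were. EGF, the founding ligand, had a log2 fold change of 0.88 in SUM149PT (adjusted p = 0.000309) and of -0.56 in HCC1937 (adjusted p = 0.0122), with a difference between the lines of 1.44 (adjusted p = 1.13e-05) and at most 1.23 FPKM in each of the 15 libraries. The neuregulin gene NRG2 had 0.71 and 0.63 (adjusted p = 0.0517 and 0.0769). ERBB4, the remaining receptor, was at most at 0.0537 FPKM in each library, NRG3 at most at 0.00744 and NRG4 at most at 0.200.

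The sheddases and their regulators release the ligands from the cell surface or restrain that release. All 12 were tested, with 3 called higher in SUM149PT CSCs (ADAM19 2.08, TIMP3 1.97 and ADAM12 1.84) and 2 lower (ADAM8 -2.68 and FRMD8 -1.15, the latter -0.62 with the GC trend removed), while 12.8% of all genes were called higher and 22.1% lower. In HCC1937, ADAM12 (2.20) and ADAM19 (1.14) were called higher, and TIMP3 (-1.30) and RHBDL2 (-1.17) lower, against 2.71% and 6.0% of all genes. With a pseudocount of 1 ADAM19 (0.69) and RHBDL2 (-0.90) lost the call there, and RHBDL2 also without HCC1937 CSC replicate 3 (-0.98). TIMP3, an inhibitor of the sheddase ADAM17, averaged 45.7 and 11.6 FPKM in SUM149PT CSCs and non-CSCs and 8.30 and 20.5 in HCC1937, and the difference between the lines was 3.26 (adjusted p = 4.87e-09). The medians over the 12 genes were -0.19 and -0.29, against -0.11 and -0.03 over all genes, and became 0.07 and -0.06 with the GC trend removed. ADAM12 and FRMD8 in SUM149PT and ADAM19 in HCC1937 are named after their values were seen.

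Of 27 adaptors and kinases that carry the signal from the receptors, 25 were tested, and in SUM149PT CSCs 2 were called higher (PIK3R1 1.58 and SRC 1.08) and 2 lower (SOS2 -1.67 and MAPK3 -1.07), MAPK3 being named after its value was seen and at -0.57 with the GC trend removed. Of all genes, 12.8% were called higher and 22.1% lower there. In HCC1937 CSCs, GAB2 (-1.31) and GAB1 (-1.08) were called lower, against 6.0% of all genes, and GAB1 lost the call without HCC1937 CSC replicate 1 (-0.998), with a pseudocount of 1 (-0.83) and with TPM scaling and quantile normalization (-0.98 each). There 0 were called higher, against 2.71% of all genes, with 3 positive values at an unadjusted p under 0.05. The medians were 0.05 in SUM149PT and -0.09 in HCC1937, and became 0.30 and 0.04 with the GC trend removed and 0.09 and 0.03 with TPM scaling.

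Of 17 genes that damp receptor signalling, 16 were tested. In SUM149PT CSCs 1 was called higher (SH3KBP1 1.72), against 12.8% of all genes, and 3 lower (CBLC -4.32, SOCS4 -1.39 and PTPN2 -1.32, the last named after its value was seen), against 22.1%. In HCC1937 CSCs, LRIG1 (1.06) was called higher and CBLC (-2.04) lower, against 2.71% and 6.0% of all genes, and LRIG1 lost the call without HCC1937 non-CSC replicate 1 (0.97). CBLC, a ubiquitin ligase of the CBL family, averaged 0.643 and 14.4 FPKM in SUM149PT CSCs and non-CSCs, 4.23 and 17.4 in HCC1937, and was listed at 0 in each SUM159PT library. The medians were -0.13 and 0.13, against -0.11 and -0.03 over all genes, and the SUM149PT median turned to 0.01 with quantile normalization and to 0.15 with the GC trend removed.

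Early response genes are transcribed soon after growth factor signalling. All 20 were tested, with 9 called higher (11 with the GC trend removed) and 1 lower in SUM149PT CSCs, against 12.8% and 22.1% of all genes, and a median log2 fold change of 0.72, against -0.11 over all genes, which became 1.17 with the GC trend removed, against 0.14. In HCC1937 CSCs 0 were called higher in the limma fit and 1 lower, against 2.71% and 6.0% of all genes, with 7 positive and 8 negative values at an unadjusted p under 0.05. The median there was -0.15, against -0.03 over all genes, and it turned to 0.06 with the GC trend removed. With TPM scaling, quantile normalization or the GC trend removed, 1 of them was called higher in HCC1937. MYC averaged 478.5 ± 13.4 and 145.1 ± 3.70 FPKM in SUM149PT CSCs and non-CSCs (log2 1.72), and 93.1 ± 5.30 and 101.0 ± 4.18 in HCC1937. EGR2 had a log2 fold change of 2.32 in SUM149PT, and DUSP4, which removes phosphate from MAP kinases, of -2.45. The difference between the lines was called positive for 6 of the 20 and negative for 2, against 12.2% and 18.2% of all genes, with a median of 0.75 against -0.08 over all genes.

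EGR2 was the gene called lower in HCC1937 (-1.30, adjusted p = 0.0254), from 0.571 to 0.173 FPKM on average. It lost that call without HCC1937 CSC replicate 2 (-1.06) or 3 (-1.36), and without HCC1937 non-CSC replicate 1 (-1.16) or 2 (-1.19). It also lost it with a pseudocount of 1 (-0.42), with no expression minimum and with a replicate block.

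**Figure D5:**
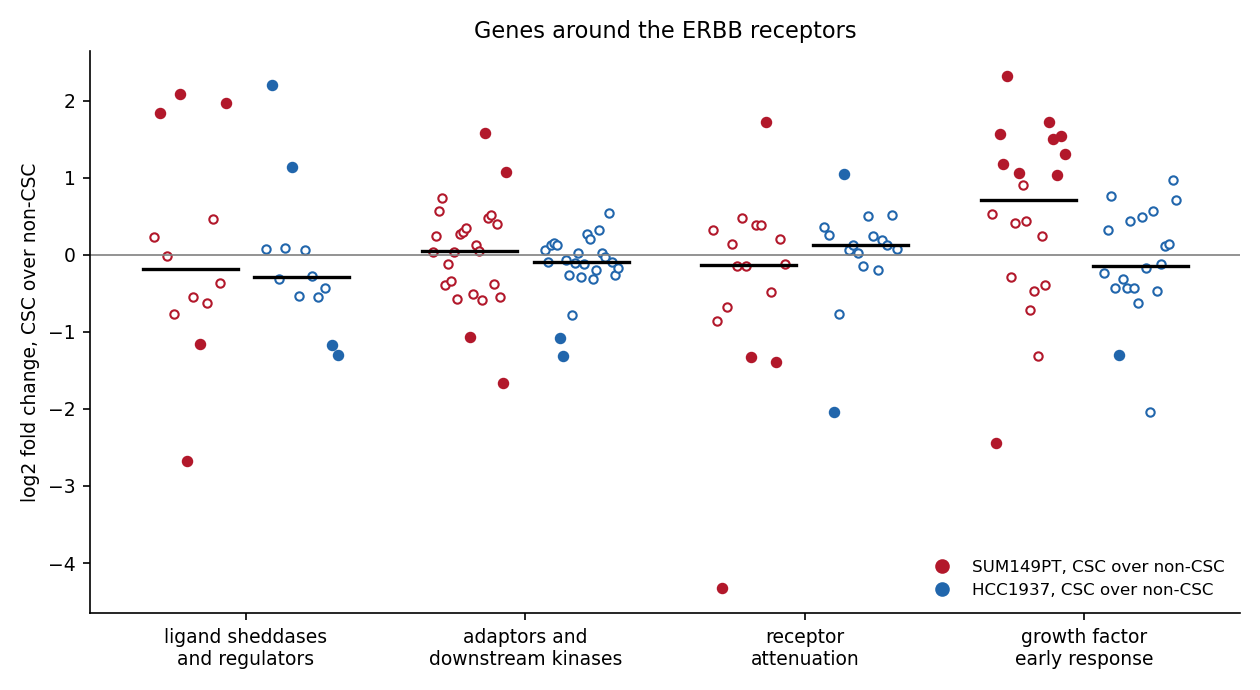
Log2 fold change of CSCs over non-CSCs for the genes of 4 pathway lists (sheddases, adaptors and kinases, attenuation and early response) in SUM149PT and HCC1937, with called genes filled and list medians as bars. The early response list had medians of 0.72 and -0.15, while the other 3 lists shown stayed between -0.29 and 0.13.

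Marker lists of cell identity were read in the same libraries, and their part in the results above was not tested. All 10 epithelial markers were called lower in CSCs of both lines (median log2 fold changes of -4.14 and -2.20), against 22.1% of all genes in SUM149PT and 6.0% in HCC1937. Their summed level had medians of 148.0 and 2147 FPKM in SUM149PT CSCs and non-CSCs, 516.5 and 1652 in HCC1937 and 290.7 in SUM159PT, led by KRT19 in SUM149PT, KRT8 or KRT18 in HCC1937 and KRT18 in SUM159PT. The largest changes were those of KRT19 (-4.75) in SUM149PT and GRHL2 (-2.47) in HCC1937. Of 9 mesenchymal markers tested, 7 were called higher and 1 lower in SUM149PT CSCs, against 12.8% and 22.1% of all genes, and 8 were called higher in HCC1937 CSCs, against 2.71%. The lower gene was TWIST1 (-1.02, named after its value was seen), a call lost with a pseudocount of 1 (-0.86), without SUM149PT CSC replicate 1 (-0.98), SUM149PT non-CSC replicate 1 (-0.98) or SUM149PT non-CSC replicate 2 (-0.95), and with TPM scaling (-0.99), quantile normalization (-0.87) and the GC trend removed (-0.56). The sums of all 10, led by VIM in each group, were 2797 and 516.9 FPKM in SUM149PT, 1028 and 214.2 in HCC1937 and 1337 in SUM159PT.

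The basal and luminal epithelial lists were shorter. Of all genes, 12.8% were called higher and 22.1% lower in SUM149PT CSCs, and 2.71% and 6.0% in HCC1937 CSCs, for comparison with the counts of these lists. Of 5 basal markers, TP63 (2.24) was called higher and KRT5 (-4.62) and KRT17 (-3.02) lower in SUM149PT CSCs, and ITGB4 (-1.41), KRT5 (-1.33) and KRT17 (-1.22) lower in HCC1937 CSCs. Their sums had medians of 94.8 and 696.3 FPKM in SUM149PT, 237.0 and 486.8 in HCC1937 and 88.7 in SUM159PT, led by KRT17, KRT14 in HCC1937 CSCs or ITGB4 in SUM159PT. Of 5 luminal markers, the 4 tested in SUM149PT (ESR1 -2.61, MUC1 -2.56, FOXA1 -2.13 and GATA3 -1.90) and all 5 in HCC1937 (ELF5 -2.15, ESR1 -1.85, GATA3 -1.70, MUC1 -1.41 and FOXA1 -1.36) were called lower in CSCs. With a pseudocount of 1 the call was lost for ESR1 in SUM149PT (-0.87) and for ESR1 (-0.94) and ELF5 (-0.77) in HCC1937. Their sums were 4.59 and 20.9 FPKM in SUM149PT, 14.9 and 42.5 in HCC1937 and 4.10 in SUM159PT, led by GATA3 or MUC1, with ELF5 at 0 in SUM149PT CSCs and SUM159PT. GATA3 in SUM149PT and MUC1 and FOXA1 in HCC1937 are named after their values were seen.

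Markers of cells other than cancer cells were read as well. Their calls stand beside 12.8% of all genes called higher and 22.1% lower in SUM149PT CSCs. In HCC1937 CSCs these shares were 2.71% and 6.0%. The leukocyte marker CD14 had a mean of at least 1 FPKM in each group and was called lower in SUM149PT CSCs (-4.23). In HCC1937 it averaged 60.3 FPKM in CSCs against 30.3 in non-CSCs, and its log2 fold change of 0.99 (adjusted p = 0.00186) missed the fold limit and passed it with TPM scaling (1.12), quantile normalization (1.06) and the GC trend removed (1.17). CD3E was at 0 in each library. The 4 endothelial markers each had a mean under 1 FPKM in each group, with sums of 0.171 and 1.72 FPKM in SUM149PT, 0.695 and 0.880 in HCC1937 and 0.295 in SUM159PT, led by PECAM1, VWF or KDR. CDH5 (-2.70), VWF (-2.48) and PECAM1 (-1.20, and -0.66 with quantile normalization) were called lower in SUM149PT CSCs, and all 3 lost the call with a pseudocount of 1 (-0.69, -0.70 and -0.31). CDH5 (-1.28) was called lower in HCC1937 CSCs, a call lost with a pseudocount of 1 (-0.28), with no expression minimum and without HCC1937 CSC replicate 2 (-1.18) or HCC1937 non-CSC replicates 1 (-1.18) or 3 (-1.27). The 5 fibroblast markers summed to 226.9 and 66.7 FPKM in SUM149PT, 12.4 and 7.26 in HCC1937 and 43.2 in SUM159PT, led by COL1A1. PDGFRB (3.10) and COL1A1 (2.14) were called higher and DCN (-3.10) lower in SUM149PT CSCs, and COL1A2 (1.58, and 0.60 with a pseudocount of 1) higher in HCC1937 CSCs. With TPM scaling, 2 fibroblast markers were called lower in SUM149PT CSCs. With TPM scaling or quantile normalization, 2 were called higher in HCC1937 CSCs.

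The genes whose pattern was most like that of a family gene were listed as a description, by Pearson correlation of log2(FPKM + 0.1) over the 15 libraries, which fall into 5 groups, among 12156 genes averaging 1 FPKM or more. For EGFR they were ANKRD11 (0.992), GBF1 (0.987) and ARID5B (0.982). The genes most like ERBB3 were LPAR5 (0.997), EVPL (0.995) and CCDC120 (0.994), and EVPL ran from 11.2 FPKM in HCC1937 non-CSCs to 0.221 in SUM149PT CSCs and 0.00713 in SUM159PT. HIGD1A (0.993), TBC1D14 (0.987) and RHPN2 (0.984) were most like AREG. EREG was matched by NT5E (0.995), RGMB (0.995) and PDGFC (0.992), of which NT5E ran from 31.6 FPKM in HCC1937 CSCs to 2.75 in SUM149PT non-CSCs and 0.708 in SUM159PT. EPGN was matched by FLNC (0.995), RRM2 (0.988) and PPP1R14A (0.988).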

How the data were processed

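The authors' deposited FPKM values were used as given. The aligner Bowtie2 and build GRCh38 are named in the submitters' processing notes, and the quantification tool is not given in the sources used here. Genes that averaged 0.1 FPKM or more over the libraries of a fit were tested by limma 3.58.1 in R 4.3.3 on log2(FPKM + 0.1), with its lmFit and eBayes functions and Benjamini-Hochberg adjustment over all genes tested. Each sorted line was fitted alone (6 libraries), the lines together (12) and SUM159PT with all groups (15). Promoters, positions and figures were handled in Python 3.11.15 with pandas 2.3.3, numpy 2.4.6, scipy 1.17.1 and matplotlib 3.10.9.

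The family members, the pathway lists (further family genes, sheddases, adaptors and kinases, attenuation and early response genes) and the marker lists (epithelial, mesenchymal, basal, luminal, leukocyte, endothelial, fibroblast and sort markers) were chosen with earlier results of these data known. Genes named were all members, up to 3 called genes of each list and line with the largest change, and up to 5 called genes near the chromosome 4 ligands, by the same measure, besides the further family genes, the sort markers, the marker genes that led a sum or stood at 0, the genes most like a member and those said to be named after their values were seen.

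Alternatives were pseudocounts of 0.01 and 1, no minimum or a mean of 1 FPKM, TPM scaling, quantile normalization, an adjusted p limit of 0.0001, no fold limit, a replicate block, a fit over all 15 libraries and each library left out. Removal of a GC trend, over the 86.6 to 86.9% of tested genes with a GC value, was chosen after seeing the data.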

Additional observations from a re-analysis of the deposited data

Results flagged for a closer look

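For 7 of the 10 family genes the CSC effect was not the same in the 2 sorted lines by the interaction test over the 12 sorted libraries (adjusted p at most 0.05, SUM149PT minus HCC1937, log2). Of all 16451 genes, 10053 met the same limit, so the count for the family is near the share of all genes. HBEGF differed by 1.83 (adjusted p = 8.48e-08), TGFA by 1.23 (adjusted p = 4.72e-06), NRG1 by 1.26 (adjusted p = 1.78e-05), EGFR by 0.59 (adjusted p = 0.0164) and EREG by 0.58 (adjusted p = 0.00251). ERBB3 differed by -2.51 (adjusted p = 1.09e-06) and EPGN by -2.79 (adjusted p = 3.6e-06). HBEGF and TGFA had a positive value in SUM149PT and a negative value in HCC1937, EPGN the reverse, and EGFR, EREG, NRG1 and ERBB3 had the same sign in both lines with a larger size in SUM149PT. Each line is a single cell line, so a difference between lines and between the sorts made from them cannot be told apart.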

How the results depend on the processing

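Of the family members called within a line, HBEGF, EREG and ERBB3 in SUM149PT passed the limits under each alternative run, and the 4 in HCC1937 (EREG, EPGN, ERBB3 and AREG) under each but the 0.0001 limit. In SUM149PT the 5596 genes called became 3109 with a pseudocount of 1, 3623 with a minimum of 1 FPKM, 3292 at the 0.0001 limit and 11993 with no fold limit, and the 6 members called became 3 with a pseudocount of 1. In HCC1937 the 1357 genes became 626, 872, 0 and 3985 under those settings, and the 4 members became 0 at the 0.0001 limit and 8 with no fold limit. The smallest adjusted p there was 0.000128, with 5886 genes at an unadjusted p under 0.05 in limma. For the difference between the lines, 5004 genes became 2872 with a pseudocount of 1, 2922 at the 0.0001 limit and 10053 with no fold limit. HCC1937 CSCs against SUM149PT CSCs went from 7034 genes to 4286 with a pseudocount of 1 and 12673 with no fold limit, and the non-CSC comparison from 6945 to 4265 and 12733, with 6 members becoming 10 with no fold limit in both and, in the non-CSC comparison, 4 with a pseudocount of 1. A looser or stricter limit changes these counts by its construction.

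Signs turned for BTC in HCC1937 (0.0617 with TPM scaling, 0.0441 with quantile normalization, -0.203 to 0.0919 with a library left out) and for the ERBB2 difference between the lines (0.00509 with a pseudocount of 1, 0.21 with the GC trend removed). In SUM159PT against SUM149PT CSCs they turned with quantile normalization for AREG (0.21), EPGN (0.57) and ERBB3 (0.14) and with the GC trend removed for AREG (1.11) and EPGN (1.90), and EPGN ran from -0.301 to 0.0615 with a library left out. Against HCC1937 CSCs, ERBB2 turned with TPM scaling (-0.10) and BTC with the GC trend removed (0.44). The cause was not tested. With a replicate block, 5584 genes and 6 members were called in SUM149PT and 1268 and 4 in HCC1937, and libraries with the same replicate number correlated at 0.136, 0.029 and 0.12 in SUM149PT and at -0.158, -0.05 and -0.036 in HCC1937, over genes, after removal of the group means. EPGN and NRG1 in SUM149PT were not tested at a minimum of 1 FPKM, where 4 members were called. Depth is unknown, so counting error for the low values of BTC, EPGN, NRG1 and ERBB3 cannot be given.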

Other observations

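The ratios of family genes within a library were compared over the 5 groups. In SUM159PT ERBB2 stood above EGFR in each library, with a median EGFR to ERBB2 ratio in FPKM of 0.241 (0.211 to 0.275), against 7.57 (5.98 to 7.73) in SUM149PT CSCs, 2.21 (1.86 to 2.22) in SUM149PT non-CSCs and 1.16 (1.10 to 1.28) in HCC1937 CSCs. ERBB2 also stood above EGFR in each HCC1937 non-CSC library, with a median ratio of 0.529 (0.494 to 0.684). The ratio of EGFR to ERBB3 had a median of 35.4 (25.1 to 39.5) in SUM159PT, 71.8 (61.6 to 86.6) in SUM149PT CSCs, 2.31 (2.26 to 2.62) in SUM149PT non-CSCs, 2.35 (2.28 to 2.53) in HCC1937 CSCs and 0.828 (0.732 to 1.03) in HCC1937 non-CSCs. The ratio of HBEGF to EREG was under 1 in each HCC1937 CSC library (0.585 to 0.668) and above 1 in each library of SUM149PT CSCs (1.67 to 1.90), SUM149PT non-CSCs (3.30 to 3.91) and HCC1937 non-CSCs (2.54 to 3.48), and it lay on both sides of 1 in SUM159PT (0.732 to 1.16, median 1.05).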
